A study of Mus musculus with 12 samples.

Results

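The 10 genes described here act in antigen presentation by the major histocompatibility complex (MHC). They were taken by symbol from a table of 28004 genes, in which all 10 were found: B2m, H2-K1, H2-D1, Tap1, Tapbp, Psmb8, Psmb9 and Nlrc5 of the class I pathway, and Cd74 and H2-Aa of class II. The table holds 12 bulk RNA-seq libraries of cells sorted from dissociated mouse lung for red and green fluorescence together, 3 libraries a stage: 1 stage before birth (E17.5) and the first postnatal days P3, P7 and P10. The genotype of every library, Acta2-dsRed+ with Pdgfra-GFP+, was the same, so that the sort took cells with activity of both reporters, and stage is the 1 difference between groups that the labels give. The labels name no treatment and no strain, so the H2 haplotype of the animals is not known. Nor do they say that libraries of 1 stage were made from different animals or litters, so p-values stand for the spread between these samples alone, which may be technical.

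Class I molecules sit on most nucleated cells and show T cells peptides cut from proteins made inside the cell. A polymorphic heavy chain (H2-K1, H2-D1) pairs with the light chain encoded by B2m. Peptides are cut by the proteasome, in which Psmb8 and Psmb9 can replace standard subunits, pumped into the endoplasmic reticulum by the transporter that Tap1 forms with Tap2, and loaded with the help of tapasin, the product of Tapbp. Nlrc5 is a transcriptional activator of class I genes. Class II molecules present peptides from outside the cell and are typical of dendritic cells, macrophages and B cells, and in the lung also of alveolar type II cells. H2-Aa encodes a class II alpha chain, and Cd74 the invariant chain that guards its peptide groove.

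The class I and class II promoters of mouse and human share a paired element, an X2 box (TGACG) followed by a Y box (ATTGG), that is known to hold a common set of factors. The bases before the RefSeq gene start were read from RefSeq promoter sequences of GRCm38.p6, which had an entry for 8 of the 10 members. The pair, with 18 to 22 bases between its boxes and on either strand, lay within 250 bases before the start of 4 of the 8, B2m, H2-K1, H2-D1 and H2-Aa, and of 0.274% of 27025 genes in the same table. The last 150 bases before the start of these 4 genes are given below, since they show the same pair upstream of class I genes and of a class II gene among the members. Each runs 5′ to 3′ on the strand of the gene, with the X2 and Y boxes of the pair in capitals. B2m is on the plus strand (chr2:122147537-122147686), H2-K1 on the minus strand (chr17:34000348-34000497), H2-D1 on the plus strand (chr17:35262944-35263093, which lies within the GENCODE span of the gene, since the RefSeq start is further downstream) and H2-Aa on the minus strand (chr17:34287824-34287973).
B2m: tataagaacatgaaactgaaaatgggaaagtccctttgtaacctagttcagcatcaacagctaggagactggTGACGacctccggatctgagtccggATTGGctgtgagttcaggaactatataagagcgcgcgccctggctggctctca
H2-K1: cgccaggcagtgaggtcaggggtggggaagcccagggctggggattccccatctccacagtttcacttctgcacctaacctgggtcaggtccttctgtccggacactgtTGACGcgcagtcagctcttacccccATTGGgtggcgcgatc
H2-D1: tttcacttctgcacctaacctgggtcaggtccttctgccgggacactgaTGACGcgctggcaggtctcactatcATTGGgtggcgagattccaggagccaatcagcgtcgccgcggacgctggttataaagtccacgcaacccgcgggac
H2-Aa: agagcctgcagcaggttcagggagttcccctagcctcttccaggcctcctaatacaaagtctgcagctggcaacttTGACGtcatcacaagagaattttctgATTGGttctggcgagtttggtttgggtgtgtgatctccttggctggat
The boxes were 20 bases apart in B2m, H2-K1 and H2-D1 and 21 bases apart in H2-Aa. The same 4 genes had at least 1 match, on either strand, to AANNGAAA, the core that interferon regulatory factors bind, within 250 bases before the start, as had 23.9% of all genes. The pair and the core did not overlap in any of the 4 promoters. A match describes letters only, and the libraries hold no measurement of binding.

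Levels are given as CPM, the authors' scaled estimated count set to a common library size, with sizes normalised by the TMM method. The deposited values were scaled in proportion to abundance per transcript length, as read from the values, so levels of different genes can be set side by side. Library totals lay between 13328600 and 18740600 estimated counts. Between 20.0% and 46.3% of each total lay in the small nuclear and cytoplasmic RNAs 7SK and 7SL. Markers of the labelled cells were abundant, with 10 genes summing to between 5028 and 9182 CPM. RNA of other lung cell types was also present. The type II cell gene Sftpc lay between 37.5 and 173.7 CPM, and Ptprc, which encodes the pan-leukocyte antigen CD45, between 0.0522 and 1.22 CPM. In bulk samples fewer cells of a type and less RNA per cell cannot be told apart.

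Across the 4 stages, class I light and heavy chain transcripts stood far above class II transcripts. Most of the calls between adjacent stages fell at the step across birth, as they did over all tested genes. There, 4225 genes were called in P3 against E17.5, 1 in P7 against P3 and 613 in P10 against P7. At P3 relative to E17.5 the genes B2m, H2-K1, Cd74 and H2-Aa were higher and Tapbp was lower. Between P3 and P7 the 10 genes gave no call. At P10 relative to P7 only B2m was called, higher. Tap1, Psmb8 and H2-D1 passed in none of the 4 comparisons, and Psmb9 and Nlrc5 were too low to be tested.

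Counted over the members, 4 rose and 1 fell of 8 tested in P3 against E17.5 (edgeR's quasi-likelihood test, adjusted p under 0.05), where 25.1% of 16827 tested genes passed, 13.1% higher and 12% lower. The median log2 fold change was 0.52, beside -0.05 over all tested genes, and was the same with H2-Aa set against 3 estimated counts per E17.5 library. The libraries of the 2 stages did not overlap for 4 members that were higher and 1 that was lower, as for 19.3% and 19.6% of tested genes, and 6 members had an unadjusted p under 0.05, as had 37.0% of tested genes. In P7 against P3, 0 of 8 passed in edgeR, DESeq2 or limma-voom, where 0.00594% of tested genes passed in edgeR (median -0.05 and 0.01). There, 0 members had an unadjusted p under 0.05, as had 14.3% of tested genes, and the libraries did not overlap for 1 member, Tap1, which was higher (12.7% of tested genes higher and 13.2% lower).

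In P10 against P7, 1 member of 8 passed, higher, where 3.64% of tested genes passed, 1.40% higher and 2.25% lower (median 0.43 and 0.01). An unadjusted p under 0.05 was found for 4 members and 20.2% of tested genes. The libraries did not overlap for 2 members that were higher, B2m and Tapbp, and 1 that was lower, H2-D1, as for 15.1% and 15.0% of tested genes. P10 against E17.5 shares its libraries with the other comparisons. In it 4 of 8 rose and 0 fell, where 18.3% of tested genes passed, 8.79% higher and 9.50% lower (median 1.01 and 0.00498). The libraries did not overlap for 5 members, all higher, as for 17.3% of tested genes higher and 16.6% lower. Over all 4 stages at once, B2m, H2-K1, Tapbp, Cd74 and H2-Aa differed (adjusted p between 0.00119 and 0.0141), as did 32.1% of tested genes. A member reached the test only if it was high enough in at least 1 stage, so Cd74 and H2-Aa could be tested only because of their postnatal levels, as could H2-Ab1 among the other class II genes.

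**Figure D1:**
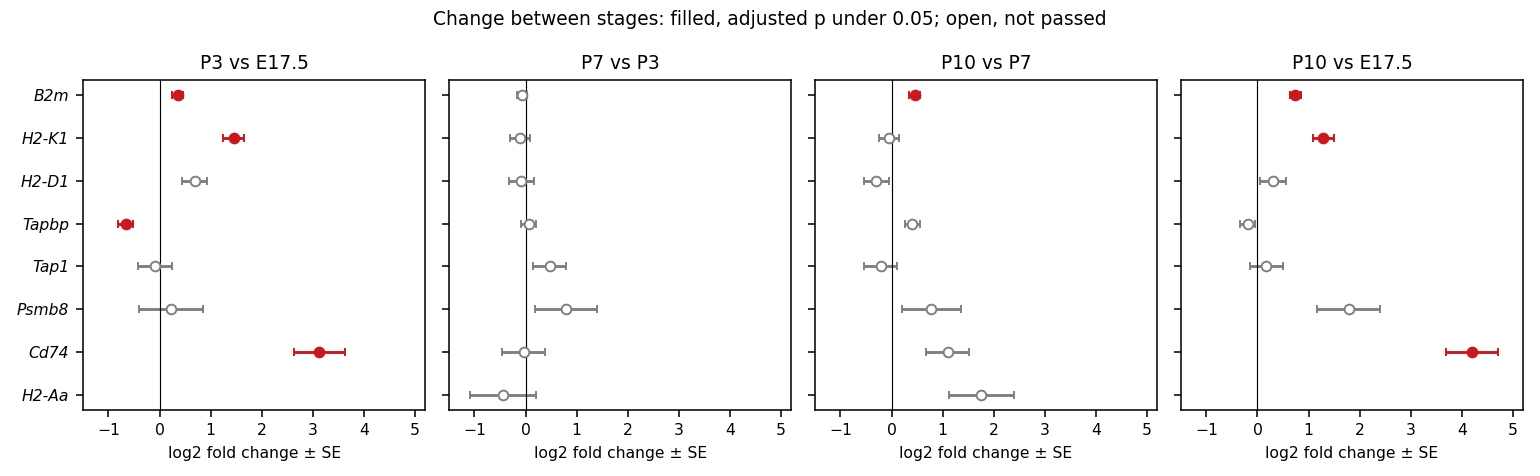
Log2 fold change with its standard error of the 8 tested genes in the 4 comparisons, from edgeR; filled points have an adjusted p under 0.05, and H2-Aa is left out against E17.5, where it was listed at 0. The called points lie in P3 against E17.5 and P10 against E17.5, save for B2m in P10 against P7 (0.45).

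**Figure D2:**
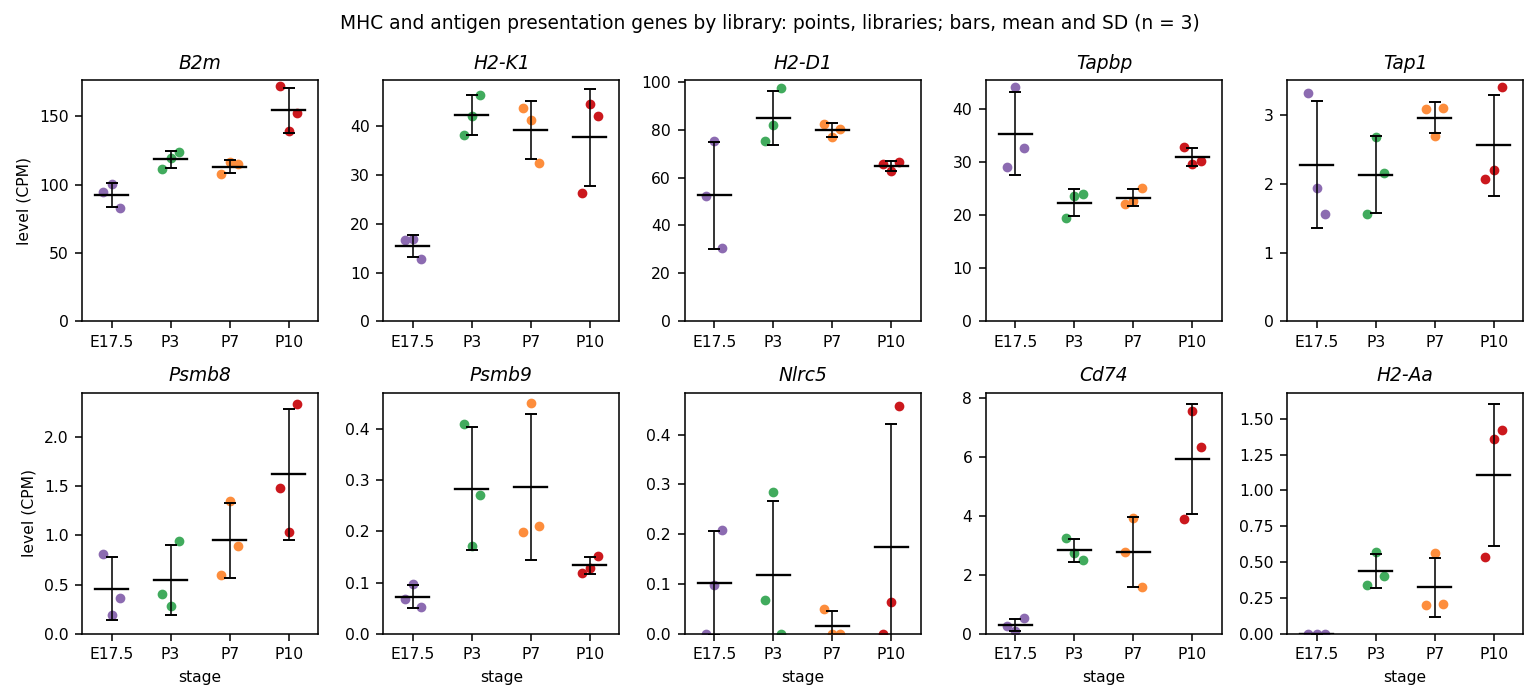
Level in CPM (linear axis from 0) of each of the 10 genes in the 12 libraries, by stage; points are libraries, and bars are the mean and SD of 3, cut at 0. B2m had its lowest libraries at E17.5 (82.7 to 100.2 CPM) and its highest at P10 (139 to 172 CPM), and the 3 E17.5 values of H2-Aa are 0.

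B2m (chromosome 2, 122147686 to 122153083, plus strand; positions here and below are those of GENCODE M21 on GRCm38) was the most abundant member at each stage. Its level was 94.7, 100.2 and 82.7 CPM at E17.5, 112, 119.7 and 124 CPM at P3, 107, 116 and 115 CPM at P7, and 172, 139 and 153 CPM at P10, for replicates 1, 2 and 3. The E17.5 libraries lay below all others and the P10 libraries above all others, while P3 and P7 overlapped. The stage means were 92.6 ± 8.96, 118 ± 6.34, 113 ± 4.85 and 155 ± 16.5 CPM (SD, n = 3). In P3 against E17.5 the log2 fold change was 0.36 (SE 0.10, edgeR's quasi-likelihood test with Benjamini-Hochberg adjustment, adjusted p = 0.0294). In P10 against P7 it was 0.45 (SE 0.10, adjusted p = 0.0429) and in P10 against E17.5 0.74 (SE 0.10, adjusted p = 0.000764). The P3 call ended without E17.5 replicate 1 or 3 or P3 replicate 2 or 3 (adjusted p = 0.0529, 0.0753, 0.0692 and 0.0830) and when just the 6 libraries of the comparison were fitted (adjusted p = 0.0692), where the alternatives ranged from 0.00493 to 0.0830. The P10 against P7 call ended without any 1 of 11 of the 12 libraries, E17.5 replicate 3 being the exception, and leaving out 1 library gave log2 fold changes between 0.34 and 0.52 and adjusted p between 0.0410 and 0.138. It also ended with no filter on low counts (adjusted p = 0.0740) and in the fit on the 6 libraries of P10 and P7 (0.0773).

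H2-K1, a class I heavy chain (chromosome 17, 33996017 to 34000347, minus strand), had the clearest difference across birth among the class I members. Its level was 16.7, 16.8 and 12.8 CPM at E17.5, 38.3, 42.1 and 46.5 CPM at P3, 43.8, 41.2 and 32.5 CPM at P7, and 26.2, 44.6 and 42.2 CPM at P10. All 9 postnatal libraries lay above the 3 E17.5 libraries, and the 3 postnatal stages overlapped one another. The mean was 42.3 ± 4.11 CPM at P3 and 15.5 ± 2.28 CPM at E17.5 (n = 3 each). This log2 fold change, 1.45 (SE 0.20), passed with adjusted p = 0.000727. At P10 the mean was 37.7 ± 9.99 CPM, with a log2 fold change of 1.29 over E17.5 (SE 0.20, adjusted p = 0.00154). The lowest postnatal value, that of P10 replicate 1, came from the library that also had the lowest summed endothelial markers of that stage, 12.7 CPM against 74.0 and 76.0 CPM in P10 replicates 2 and 3. P3 replicate 1 was likewise lowest of its stage in both (endothelial 17.2 CPM). At E17.5 and P7 the library lowest in endothelial markers was instead the highest in H2-K1 (E17.5 replicate 2, endothelial 20.3 CPM, and P7 replicate 1, endothelial 20.7 CPM). The part of endothelial RNA in the H2-K1 level was not tested.

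H2-D1, the other main heavy chain (chromosome 17, 35262730 to 35267499, plus strand), stood higher than H2-K1 in every library. Its values were 52.3, 75.2 and 30.5 CPM at E17.5, 75.2, 82.1 and 97.3 CPM at P3, 82.5, 77.0 and 80.2 CPM at P7, and 65.5, 62.6 and 66.7 CPM at P10. The E17.5 libraries were widely spread, and E17.5 replicate 2 lay level with P3 replicate 1, so those stages overlapped. The means were 84.8 ± 11.3 CPM at P3 and 52.7 ± 22.4 CPM at E17.5, with a log2 fold change of 0.69 that did not pass (SE 0.25, adjusted p = 0.0651). It passed without E17.5 replicate 2 (log2 fold change 1.05, adjusted p = 0.00650), with DESeq2 (adjusted p = 0.0184), with limma-voom (0.0375), with upper-quartile scaling (0.0405) and with a 10 CPM minimum (0.0427), where the alternatives ranged from 0.00650 to 0.175. At P10 the 3 libraries lay below the 3 of P7 (64.9 ± 2.12 and 79.9 ± 2.77 CPM), but the log2 fold change of -0.30 did not pass (SE 0.25, adjusted p = 0.536).

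Reads of these heavy chains can be shared with related genes. Of the distinct 50-base stretches in annotated transcripts, 9.63% for H2-K1 and 12.8% for H2-D1 also occur in transcripts of other genes, against 0 for B2m, Cd74, Psmb9 and Nlrc5, and between 0.228% and 2.87% for Psmb8, Tap1, H2-Aa and Tapbp. How the authors' quantification divided such reads is unknown here, so the levels of the H2 class I rows are uncertain to that extent. H2-K1 made up between 18.3% and 29.6% of the summed H2-K1 and H2-D1 level at E17.5, and between 32.3% and 33.9% at P3, 28.8% and 34.9% at P7 and 28.6% and 41.6% at P10. B2m exceeded the summed heavy chains in the 3 E17.5 libraries (ratio 1.09 to 1.91) and in the 3 P10 libraries (1.30 to 1.88), and was near them at P3 (0.864 to 0.984) and P7 (0.852 to 1.02).

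Among 11 other class I and class I-like genes, of which 10 were tested, 1 rose and 2 fell in P3 against E17.5 (median log2 fold change -0.03, beside -0.05 over all 16827 tested genes). H2-Q4, a nonclassical heavy chain that shares sequence with its neighbours, averaged 17.9 ± 2.76 CPM at P3 and 3.90 ± 1.496 CPM at E17.5 (log2 fold change 2.22, SE 0.27, adjusted p = 0.000344). Mr1, which presents vitamin metabolites to MAIT cells, averaged 14.6 ± 1.86 CPM at P3 and 26.8 ± 3.34 CPM at E17.5 (-0.88, SE 0.13, adjusted p = 0.000963). Fcgrt, the neonatal Fc receptor heavy chain, which also pairs with the B2m product, averaged 45.9 ± 4.29 CPM at P3 and 70.5 ± 13.6 CPM at E17.5 (-0.62, SE 0.13, adjusted p = 0.00569). In P10 against E17.5, 2 rose and 1 fell: H2-Q4 (22.02 and 3.90 CPM), Cd1d1, a lipid-presenting molecule (10.9 ± 1.91 and 4.61 ± 1.16 CPM), and Mr1 (16.3 and 26.8 CPM), with a median of 0.58 beside 0.00498 over all tested genes. In that comparison 8.79% of all tested genes rose and 9.50% fell. In P3 against E17.5 these shares were 13.1% and 12%. Calls in both directions were thus found in this list of class I genes, as they were over all tested genes.

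Tapbp (chromosome 17, 33915899 to 33929292, plus strand) was the 1 member that fell. Its values were 29.2, 44.2 and 32.7 CPM at E17.5, 19.4, 23.5 and 24.05 CPM at P3, 22.1, 22.7 and 25.2 CPM at P7, and 32.8, 29.6 and 30.2 CPM at P10. The P3 libraries lay below the E17.5 libraries and the P10 libraries above those of P7. The mean was 22.3 ± 2.53 CPM at P3 and 35.3 ± 7.86 CPM at E17.5 (log2 fold change -0.66, SE 0.15, adjusted p = 0.00879). In P10 against P7 the means were 30.9 ± 1.71 and 23.3 ± 1.65 CPM, and the log2 fold change of 0.41 did not pass (SE 0.15, adjusted p = 0.157). In a fit on the 6 libraries of P3 and E17.5 alone the fall had adjusted p = 0.0531, where the alternatives ranged from 0.000345 to 0.0531.

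Tap1 (chromosome 17, 34187553 to 34197225, plus strand) and its partner Tap2 were low throughout. Tap1 had 3.33, 1.95 and 1.56 CPM at E17.5, 1.57, 2.68 and 2.16 CPM at P3, 3.09, 2.70 and 3.10 CPM at P7, and 2.08, 2.20 and 3.41 CPM at P10. The E17.5 libraries spanned those of P3 and P7, and the P7 libraries lay above those of P3. Its log2 fold change was -0.09 in P3 against E17.5 (SE 0.33, adjusted p = 0.873), 0.47 in P7 against P3 (SE 0.32, adjusted p = 0.536), -0.21 in P10 against P7 (SE 0.32, adjusted p = 0.769) and 0.17 in P10 against E17.5 (SE 0.33, adjusted p = 0.770). Tap2 averaged 2.65 ± 0.912, 2.73 ± 0.925, 3.15 ± 0.404 and 2.94 ± 0.436 CPM at E17.5, P3, P7 and P10 and did not pass either (adjusted p between 0.789 and 0.940 in the 4 comparisons).

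Psmb8 and Psmb9 are the immunoproteasome subunits encoded beside Tap1 on chromosome 17. Psmb8 (34197721 to 34201454, plus strand) had 0.815, 0.195 and 0.365 CPM at E17.5, 0.409, 0.285 and 0.946 CPM at P3, 0.598, 1.35 and 0.894 CPM at P7, and 1.48, 1.04 and 2.34 CPM at P10. The P10 libraries lay above those of E17.5, with means of 1.62 ± 0.662 and 0.458 ± 0.321 CPM, but the log2 fold change of 1.79 did not pass (SE 0.61, adjusted p = 0.0691). It passed with DESeq2 (adjusted p = 0.0275) and without E17.5 replicate 1 (0.0395), where the alternatives ranged from 0.0275 to 0.226. Psmb9 (34181987 to 34187764, minus strand) was too low to be tested, with between 1 and 8 estimated counts per library, or 0.0522 to 0.451 CPM. It had 1 estimated count in each E17.5 library, and its stage means were 0.0725, 0.283, 0.287 and 0.134 CPM in order of age. Its annotated span overlaps that of Tap1 on the other strand, and whether counting used strand is unknown here.

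The standard subunits stood higher. Of 12 constitutive proteasome genes 11 rose in P3 against E17.5 and none fell (median log2 fold change 0.64, beside -0.05 over all tested genes). Psmb5, which Psmb8 can replace, averaged 28.7 ± 1.26 CPM at P3 and 13.6 ± 2.98 CPM at E17.5 (log2 fold change 1.08, SE 0.14, adjusted p = 0.000458). Psmb3 averaged 62.6 ± 4.52 CPM at P3 and 29.6 ± 6.997 CPM at E17.5 (1.08, SE 0.16), Psma7 113 ± 3.57 and 65.4 ± 10.5 CPM (0.78, SE 0.12), and Psma3 124 ± 15.6 and 74.7 ± 6.78 CPM (0.73, SE 0.11). Psmb8 had a log2 fold change of 0.22 in the same comparison, with a wide error (SE 0.63, adjusted p = 0.840). The difference between the subunits was not tested. In P7 against P3 and in P10 against P7 all 12 estimates were below 0, and 0 passed in edgeR, with 5 and 9 at an unadjusted p under 0.05. The shares of all tested genes at that unadjusted p were 14.3% and 20.2%. DESeq2 called 4 lower in each, and limma-voom 0 and 1 lower. In both comparisons DESeq2 also called more of all genes than edgeR did, with the counts given below. Psmb1 was the 1 gene of the list that passed in P10 against E17.5, lower (51.7 and 74.3 CPM), as did 9.50% of all tested genes. The ratio of Psmb8 to Psmb5 lay between 0.0172 and 0.0652 at E17.5, 0.01004 and 0.0314 at P3, 0.0293 and 0.0732 at P7, and 0.0727 and 0.146 at P10.

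**Figure D3:**
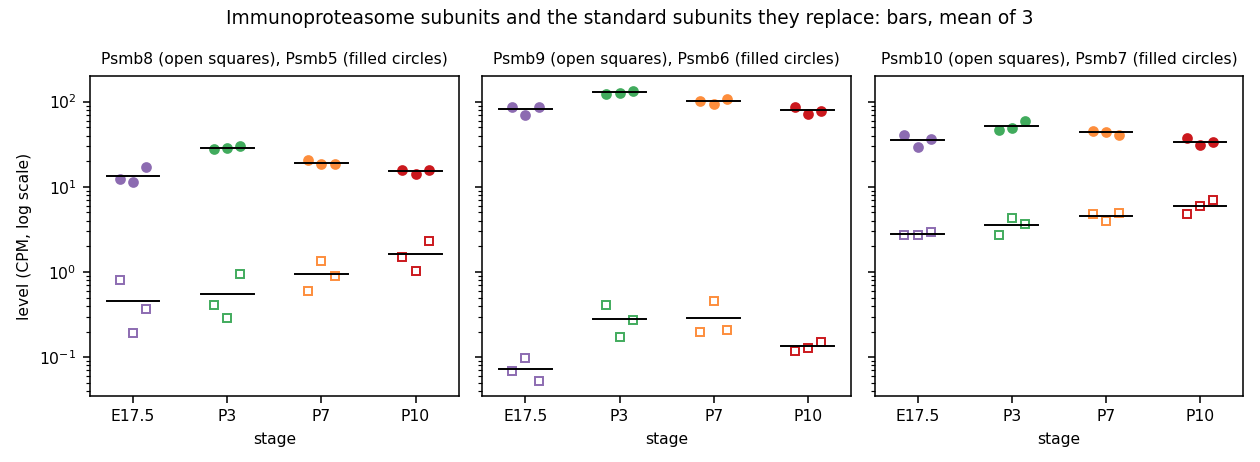
Level in CPM (log axis) of the immunoproteasome subunits Psmb8, Psmb9 and Psmb10 (open squares) and of the standard subunits Psmb5, Psmb6 and Psmb7 that they replace (filled circles), by stage; each point is a library and bars are means of 3. In every library the standard subunit lies above its counterpart, by the least for Psmb10 and Psmb7 at P10 (5.94 ± 1.16 and 34.0 ± 3.04 CPM).

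Psmb10, the remaining immunoproteasome subunit, encoded away from the MHC, averaged 2.79 ± 0.115, 3.57 ± 0.804, 4.59 ± 0.516 and 5.94 ± 1.16 CPM in order of age. It rose in P10 against E17.5 (log2 fold change 1.09, SE 0.21, adjusted p = 0.00527), and none of the adjacent steps passed (adjusted p between 0.256 and 0.457). Of 10 other peptide supply and loading genes, Psmb10 included, 2 rose and 1 fell in P3 against E17.5. Over all tested genes 13.1% rose and 12% fell in that comparison. Canx, the chaperone calnexin, averaged 525 ± 41.4 CPM at P3 and 396 ± 45.2 CPM at E17.5 (0.41, SE 0.12, adjusted p = 0.0361), and Psme2 of the proteasome activator 31.3 ± 1.96 and 25.2 ± 1.12 CPM (0.31, SE 0.09, adjusted p = 0.0323). Lnpep, an aminopeptidase used in cross-presentation, averaged 13.998 ± 0.482 CPM at P3 and 26.9 ± 2.42 CPM at E17.5 (-0.94, SE 0.11), and it rose in P10 against P7 (23.8 ± 2.31 and 15.4 ± 1.05 CPM, 0.63, SE 0.10, adjusted p = 0.0170). Erap1, which trims peptides for class I, rose with Psmb10 in P10 against E17.5 (4.24 ± 0.720 and 2.02 ± 0.200 CPM, log2 fold change 1.06, SE 0.21, adjusted p = 0.00516). These were the 2 of the list called in that comparison, where 8.79% of all tested genes rose. The list medians in P3 against E17.5 and in P10 against E17.5 were 0.30 and 0.16.

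Nlrc5 (chromosome 8, 94434356 to 94527272, plus strand) was close to 0 in the listed values. These are scaled by length and rounded, so a listed 0 of this long gene (longest transcript 7578 nt) need not mean 0 reads. It was listed at 0 in 5 of 12 libraries and at no more than 9 estimated counts, with its highest level, 0.458 CPM, in P10 replicate 3, and it was not tested. Its stage means, 0.102 ± 0.104, 0.118 ± 0.149, 0.0166 ± 0.0288 and 0.174 ± 0.248 CPM in order of age, had errors as large as the means. Of 18 interferon-pathway and MHC regulators, 2 rose and 2 fell in P3 against E17.5 (median log2 fold change -0.07). Over all tested genes 13.1% rose and 12% fell in that comparison. Irf1, an interferon-induced activator of class I genes, averaged 273 ± 62.5 CPM at P3 and 154 ± 29.3 CPM at E17.5 (0.83, SE 0.21, adjusted p = 0.0171), and 345 ± 31.6 CPM at P10 (1.16 over E17.5, SE 0.21, adjusted p = 0.00388). Rfxap, a subunit of the factor that binds the X box, averaged 35.1 ± 6.65 CPM at P3 and 23.6 ± 2.02 CPM at E17.5 (0.57, SE 0.18, adjusted p = 0.0434).

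Irf9 and Stat2, which carry the type I interferon signal, both fell in P3 against E17.5. Irf9 averaged 8.56 ± 0.608 and 16.3 ± 4.46 CPM (log2 fold change -0.92, SE 0.22, adjusted p = 0.0116) and Stat2 2.66 ± 0.316 and 4.61 ± 1.02 CPM (-0.79, SE 0.20, adjusted p = 0.0145). In P10 against E17.5, 2 of the 18 regulators rose and 1 fell, where 8.79% of all tested genes rose and 9.50% fell. Rfxank, another subunit of the X box factor, also rose there (6.02 ± 1.17 and 3.49 ± 0.629 CPM, 0.79, SE 0.21, adjusted p = 0.0259). Irf8, which is typical of myeloid and B cells, fell (2.43 ± 0.453 CPM, and 7.30 ± 6.22 CPM at E17.5, where the libraries spanned 3.41 to 14.5; -1.59, SE 0.48, adjusted p = 0.0426).

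Cd74 (chromosome 18, 60803848 to 60812652, plus strand) and H2-Aa (chromosome 17, 34282744 to 34287823, minus strand) were near 0 before birth and higher after it, at levels far below the class I chains. Cd74 had 0.272, 0.0973 and 0.522 CPM at E17.5, 3.27, 2.73 and 2.50 CPM at P3, 2.79, 3.94 and 1.58 CPM at P7, and 3.92, 7.57 and 6.35 CPM at P10. The 9 postnatal libraries lay above the 3 E17.5 libraries, and P10 replicate 1 overlapped the P7 libraries. The mean was 2.84 ± 0.397 CPM at P3 and 0.297 ± 0.213 CPM at E17.5 (log2 fold change 3.12, SE 0.50, adjusted p = 0.00144). In P10 against E17.5 the means were 5.95 ± 1.86 and 0.297 CPM (4.19, SE 0.51, adjusted p = 0.000291). Without E17.5 replicate 3, the E17.5 library with the most Cd74, these log2 fold changes were 3.83 and 4.87. In P10 against P7 the means were 5.95 and 2.77 ± 1.18 CPM, and the log2 fold change of 1.10 did not pass (SE 0.42, adjusted p = 0.175), but did with DESeq2 (adjusted p = 0.0449, where the alternatives ranged from 0.0449 to 0.430).

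H2-Aa had a listed value of 0 in all E17.5 libraries, so no fold over that stage is given. It stood at 0.341, 0.570 and 0.405 CPM at P3, 0.199, 0.563 and 0.210 CPM at P7, and 0.534, 1.36 and 1.42 CPM at P10, or between 4 and 28 estimated counts per postnatal library. It was higher than at E17.5 at P3 (adjusted p = 0.00538) and at P10 (adjusted p = 0.00200), and with limma-voom the P3 call ended (adjusted p = 0.0665, where the alternatives ranged from 0.00125 to 0.0665). H2-Ab1, the beta chain that pairs with it, was called in the same comparisons. It was listed at 0 in 2 of 3 E17.5 libraries and averaged 0.969 ± 0.255 CPM at P3 and 0.0649 ± 0.112 CPM at E17.5 (adjusted p = 0.00902). H2-Eb1 was too low to be tested, at 0.777 ± 0.516 CPM at P10 and at most 0.338 CPM in any earlier library.

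Of the 11 other class II genes, 5 were tested, and H2-Ab1 was the 1 that passed, in P3 against E17.5 and in P10 against E17.5. In these 25.1% and 18.3% of all tested genes passed. Ciita, the master activator of class II genes, averaged 0.622 ± 0.0545, 0.378 ± 0.0672, 0.690 ± 0.0956 and 0.641 ± 0.0769 CPM in order of age. Its P3 libraries lay below those of E17.5 and P7, but no comparison passed (adjusted p between 0.249 and 0.951). Ifi30, a lysosomal reductase of the class II pathway, was the most abundant of these genes and stayed between 18.2 ± 3.37 and 23.2 ± 0.524 CPM as a stage mean.

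Most tested markers of immune cells had estimates above 0 in the same comparisons. These were 8 of 10 in P3 against E17.5 (median log2 fold change 0.83, beside -0.05 over all tested genes). In P10 against E17.5 they were 10 of 10 (median 1.37, beside 0.00498), and 0 were called lower in either. Markers that reached the test through postnatal libraries alone could hardly have estimates below 0 against E17.5, so these signs are partly set by the filter. Among markers too low to be tested, C1qa, C1qb, C1qc, Mrc1, Cx3cr1 and Ly86 had lower means at P10 than at E17.5. Others, such as Cd53, had higher ones. The 26 immune markers summed to between 14.1 and 23.6 CPM at E17.5, 22.05 and 27.4 at P3, 20.1 and 28.3 at P7, and 23.6 and 33.3 at P10. Lyz2, which type II cells also express, made up much of the sums (11.9 to 16.3 CPM at P3 and 5.11 to 6.18 CPM at E17.5). Without it the sums were 10.1 to 11.1 CPM at P3 and 8.95 to 17.4 CPM at E17.5, which overlapped, and 14.5 to 20.4 CPM at P10. Of the 26 markers 10 were tested, and 3 rose in P3 against E17.5 (Lyz2, the B cell gene Cd79a and the neutrophil gene S100a8) and 4 in P10 against E17.5 (the same 3 and Ptprc), where 13.1% and 8.79% of all tested genes rose. S100a8, Cd79a and Ptprc averaged 0, 0.543 and 0.118 CPM at E17.5. Laptm5, Tyrobp and Fcer1g averaged 0.285, 0.133 and 0.362 CPM there. Like Cd74 and H2-Aa, all of these markers could be tested only because of their postnatal levels. The macrophage genes C1qb, Mrc1 and Ly86, too low to be tested, had all P3 libraries below those of E17.5 (means of 0.0640 and 0.340 CPM, 0.147 and 0.751 CPM, and 0.498 and 2.74 CPM), and Ly86 also those of P10 (0.205 CPM). Over all tested genes 19.6% lay lower at P3 without overlap. Other untested markers went the other way without overlap, Cd3e at P3 (0.167 and 0.0174 CPM) and Cd53 at P10 (0.315 and 0.0695 CPM). Of the 26 markers, 7 were at 0 in the 3 E17.5 libraries, among them Marco, Itgax, Cd52, Ms4a1, Nkg7 and S100a8. At P3, 3 were at 0 in all libraries, among them Ms4a1 and Nkg7, and at P7 3, among them Cd52 and Nkg7, while no marker was at 0 in all 3 P10 libraries.

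Ptprc had 0.204, 0.0973 and 0.0522 CPM at E17.5, 0.273, 0.285 and 0.135 CPM at P3, 0.150, 0.451 and 0.210 CPM at P7, and 0.772, 0.841 and 1.22 CPM at P10. It was highest in the 3 P10 libraries, as Cd74 was on average, while its P3 and E17.5 libraries overlapped where those of Cd74 did not. The ratio of Cd74 to Ptprc lay between 1 and 10 at E17.5, 9.60 and 18.5 at P3, 7.50 and 18.7 at P7, and 5.08 and 9 at P10. At E17.5 it rests on 1 to 10 estimated counts of Cd74 and 1 to 3 of Ptprc. P10 replicate 1, lowest of its stage in Cd74 and H2-Aa, was also lowest in summed immune markers (23.6 CPM).

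Markers of other lung cells differed between the same stages. The 11 alveolar epithelial markers summed to between 124 and 165.5 CPM at E17.5, 166.1 and 246 CPM at P3, 116 and 157 CPM at P7, and 56.6 and 198 CPM at P10, so that they stood above E17.5 at P3 and overlapped it at P7 and P10. In P10 against E17.5, 1 of the 11 rose and 2 fell (median log2 fold change -0.38), where 8.79% of all tested genes rose and 9.50% fell. The 6 airway epithelial markers summed to between 14.9 and 24.6 CPM at E17.5, 84.8 and 135 CPM at P3, 121 and 179 CPM at P7, and 70.8 and 251 CPM at P10, with all 9 postnatal libraries above those of E17.5. Of 3 tested, 2 rose in P3 and in P10 against E17.5, where 13.1% and 8.79% of all tested genes rose. They were the club cell gene Scgb1a1 and Tppp3, listed here as a ciliated cell gene. Tppp3 made up most of the sum at P3 and P7 (means of 78.9 and 101 CPM, beside mean sums of 112 and 148 CPM). The ciliated cell genes Foxj1 and Ccdc153 stayed low, with stage means of at most 0.430 and 0.140 CPM. The 6 erythroid markers summed to between 117 and 179 CPM at E17.5 and between 12.5 and 53.6 CPM in the postnatal libraries. P10 replicate 1 was the lowest of its stage in all of these sums and in the endothelial sum (alveolar 56.6 CPM, airway 70.8 CPM, erythroid 27.0 CPM, endothelial 12.7 CPM). The part of immune or epithelial RNA in the class II levels was not tested.

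**Figure D4:**
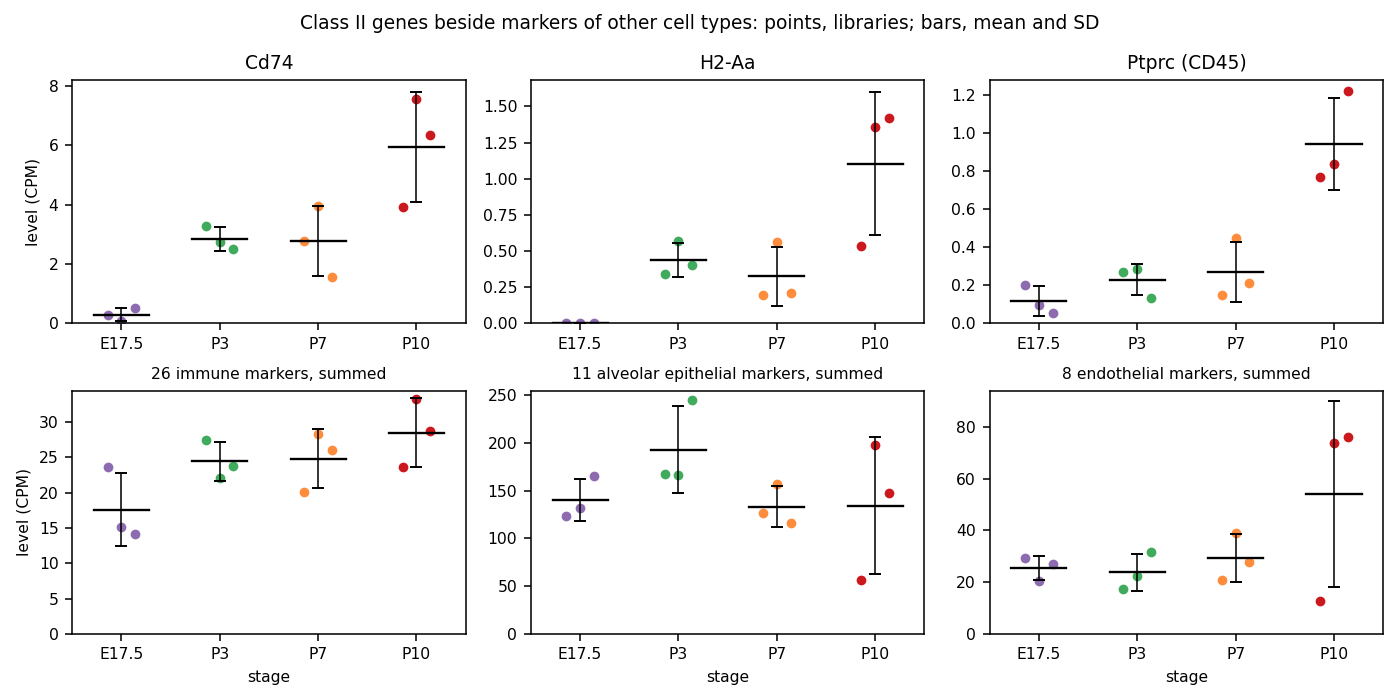
Level in CPM (linear axes from 0) of Cd74, H2-Aa and Ptprc and the summed level of immune, alveolar epithelial and endothelial markers in the 12 libraries, by stage; points are libraries and bars are the mean and SD of 3. Cd74 separates the postnatal libraries from the E17.5 libraries, while the summed immune markers overlap between P3 (22.05 to 27.4 CPM) and E17.5 through 1 library, E17.5 replicate 1 (23.6 CPM; the other 2 had 15.1 and 14.1 CPM).

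Class I was also set directly beside class II in each library. The summed H2-K1 and H2-D1 level was 83.1 to 946 times the summed Cd74 and H2-Aa level at E17.5, 31.4 to 49.5 times at P3, 26.2 to 63.0 times at P7 and 12.01 to 20.6 times at P10. The E17.5 ratios rest on 1 to 10 estimated counts of class II. H2-K1 was 34.0 to 53.1 times the level of Ptprc at P10, and between 82.0 and 344 times in the libraries of the other stages. By rank among genes above 0 in any library, B2m lay between the 96.5 and 98.1 percentile at the 4 stages and H2-D1 between the 93.1 and 96.1. H2-K1 stood at the 80.02 percentile at E17.5 and at 91.7, 91.4 and 91.0 at P3, P7 and P10, and Cd74 at 37.7, 60.8, 60.1 and 68.7 in order of age.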

How the data were processed

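Bulk RNA-seq was made from 12 libraries of sorted cells. Per the labels' protocols, sorted cells went into Trizol and libraries were made by a low-input stranded method. The deposited values are estimated counts per gene, in whole numbers and, as the values themselves show, scaled by length: in genes with 1 annotated transcript the median smallest value above 0 was 54 for 80 to 120 nt and 1 for 1000 to 1500 nt. A value is therefore not a number of reads. The genome build was GRCm38, per the submitters' processing notes, and the quantification tool is not given in the sources used here.

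Stages were taken from the labels. Genes were tested with edgeR 4.0.16 (limma 3.58.1, R 4.3.3) using TMM sizes, its filter on low counts (16827 genes kept) and a robust quasi-likelihood model of stage on all 12 libraries, with p-values adjusted by Benjamini-Hochberg over the genes kept and called under 0.05. Each adjusted p comes from it where no other tool is named. The scripts were tested on simulated data. Alternatives were 2 scalings, 2 filters, DESeq2 1.42.0, limma-voom, smaller fits, a replicate block and each library left out.

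The members and lists were chosen with earlier results of these data known. All 10 members are named, and of each other list up to 4 of the largest changes that passed, with Tap2, Psmb10, Ciita, H2-Ab1, H2-Eb1 and Irf1; some items that this rule names are not reported here. Ifi30, Psmb7, H2-Q1, H2-T10 and H2-T22 were named after their values were seen.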

Additional observations from a re-analysis of the deposited data

How the results depend on the processing

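H2-K1, Cd74 and, but for limma-voom at P3, H2-Aa kept their calls against E17.5 under every alternative in which they were tested, as did B2m in P10 against E17.5. No call changed sign. Of 74 recomputed values of called members under other settings 7 lost the call, and of 120 with 1 library left out 15 did, all of B2m in P3 against E17.5 or P10 against P7. Same-numbered libraries of different stages did not deviate together more than others. A correlation over 0.1 was found for 5 of 18 same-numbered pairs and 11 of 36 pairs with other numbers. The main fit therefore did not pair libraries by number, though with 3 libraries a stage this check cannot exclude a shared batch. The replicate block gave 0 genes in P7 against P3 and 310 genes and 0 members in P10 against P7, and B2m had adjusted p = 0.0592 in P3 against E17.5 and 0.0885 in P10 against P7; it changed no other call of a member. P7 against P3 (1 gene) gave 4 genes with upper-quartile scaling, 3 with no filter, 25 with the 10 CPM minimum, 730 with DESeq2, 18 with limma-voom, 9 on 6 libraries and 0 to 73 with 1 library left out (73 without E17.5 replicate 1). P10 against P7 (613 genes, 1 member) gave 307 genes and 0 members with no filter, 1841 and 2 with DESeq2, 0 members on 6 libraries, and 22 to 790 genes and 0 to 1 members with 1 library left out. It gave 22 and 25 genes without P10 replicate 2 or 3, 55, 41 and 39 without P7 replicate 1, 2 or 3, and 291 and 260 without P3 replicate 1 or 2. Fits on 6 libraries gave 2767 genes and 2 members in P3 against E17.5 and 1687 genes in P10 against E17.5, where leaving out 1 library gave 2016 (P10 replicate 3) to 3113 genes. The 10 CPM minimum left 4 members to test, of which 2 passed in P10 against E17.5 and 3 across the stages. The cause of these shifts was not tested, apart from the fewer genes or libraries that the filter and the smaller fits hold.

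With 1 library left out, 7 uncalled log2 fold changes crossed 0. These were Tap1 (-0.29 to 0.29) and Psmb8 (-0.42 to 0.89) in P3 against E17.5, Tap1 in P10 against E17.5 (-0.088 to 0.55), and H2-K1 in P10 against P7 (-0.19 to 0.12). In P7 against P3 they were Tapbp (-0.030 to 0.12), Cd74 (-0.38 to 0.24) and H2-D1 (-0.17 to 0.021). Plain library totals in place of TMM sizes moved 11 of 40 stage means of members by more than 1 SD.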

Other observations

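The 2 nonclassical class I rows H2-T10 and H2-T22, products of closely related genes, went apart at P10; they were looked at after their values were seen. H2-T10 stood at 0.178, 0.129 and 0.458 CPM at P10 against 2.44, 2.59 and 2.37 CPM at P7, and had 2.24, 2.92 and 1.93 CPM at E17.5 and 2.80, 2.79 and 2.36 CPM at P3. The log2 fold change in P10 against P7 was -3.20 (SE 0.39, edgeR adjusted p = 0.00725). H2-T22 averaged 8.36 ± 1.52 CPM at P10 and 5.83 ± 1.49 CPM at P7 (0.52, SE 0.21, adjusted p = 0.200). H2-Q1, also looked at after its values were seen, averaged 4.65 ± 1.12 CPM at P3 and 0.498 ± 0.116 CPM at E17.5 (3.23, SE 0.32, adjusted p = 0.000106), beside the rise of its neighbour H2-Q4. Such rows share sequence, so their values are uncertain, and since the labels give no strain it is not known whether the H2 haplotype was the same at each stage, which bears on all H2 rows. Over all 23 class I heavy chain rows, H2-K1 and H2-D1 held between 65.8% and 67.1% of the summed level at P10 and between 70.4% and 78.0% at E17.5.

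By deviations from the stage means over the 12 libraries, the genes most like B2m were Rap1b, Hspa5, Ddx6, Hnrnpf and Alyref and those most like H2-K1 were Gm10443, Gabbr1, Eif4a2, Eif4g3 and Nr4a2. The 10 likenesses lay between 0.909 and 0.955 (Pearson, described without a test), and the points share library depth and makeup. They are the highest for each gene among 7197 tested genes with a mean of 10 CPM or more, so high values were picked. Gm10443 varied widely, from 0 CPM in P10 replicate 1 to 136 CPM in P3 replicate 3.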
